A study of Saccharomyces cerevisiae and Kluyveromyces marxianus with 18 samples.

Results

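Transcripts of the enzymes that make and activate acetate, and of the family that carries it across the plasma membrane, were followed in a pair of yeasts grown with decreasing oxygen. The family was chosen by S288C locus names: the aldehyde dehydrogenases ALD2 (YMR170C), ALD3 (YMR169C), ALD4 (YOR374W), ALD5 (YER073W) and ALD6 (YPL061W), the acetyl-CoA synthetases ACS1 (YAL054C) and ACS2 (YLR153C), and the transport genes ADY2 (YCR010C), ATO2 (YNR002C) and ATO3 (YDR384C). Earlier results of these data, including values of ALD4, ALD5 and ADY2 against aerobic cultures, were known when these 10 loci were chosen. They matched 18 of 11501 gene rows, 9 of 5330 in Kluyveromyces marxianus and 9 of 6171 in Saccharomyces cerevisiae, and all 18 passed the filter on low counts. No K. marxianus row listed ALD2 and no S. cerevisiae row listed ATO2, so 8 loci had a row in both species. K. marxianus genes carry these names through the counterpart column of the deposited tables, and which K. marxianus gene matches which paralog within the ALD and ATO families is uncertain.

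Poly(A)-selected RNA was sequenced from wild-type K. marxianus CBS6556, a thermotolerant yeast, and wild-type S. cerevisiae CEN.PK113-7D, a laboratory strain, all in chemostats at a dilution rate of 0.1 per hour and pH 6 in a medium with urea and an antifoam. The 18 libraries formed 9 groups of 2, which the series' design text calls biological replicates. Tween 80 is a source of oleic acid and ergosterol is the main yeast sterol, and cells need oxygen to make either. Glucose in the feed was 7.5 g/L for aerobic cultures and 20 g/L for all others. Aerobic cultures received 10 mg/L ergosterol but no Tween 80. Oxygen-limited (micro-aerobic) cultures received ergosterol at that dose and Tween 80 at 420 mg/L. Anaerobic cultures received the same doses of both (TE), Tween 80 alone (T), or neither. The unsupplemented cultures, with neither, existed in S. cerevisiae alone. Glucose and Tween 80 changed together with oxygen in every comparison against aerobic cultures, so their parts cannot be told apart.

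As background, pyruvate decarboxylase turns pyruvate into acetaldehyde, aldehyde dehydrogenases oxidise acetaldehyde to acetate, and acetyl-CoA synthetases spend ATP to join acetate to coenzyme A. In S. cerevisiae this route supplies the acetyl-CoA that the cytosol uses for fatty acids and sterols. Ald6 is the main cytosolic enzyme, Ald4 and Ald5 are mitochondrial, and Ald2 and Ald3 are cytosolic enzymes best known for making beta-alanine, a precursor of coenzyme A. Acs1 is the synthetase of respiring cells and is repressed by glucose, whereas Acs2 is needed for growth on glucose. Ady2 imports acetate, and its relatives Ato2 and Ato3 have been described as ammonium exporters. These roles are known from S. cerevisiae.

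In S. cerevisiae the genes of acetate use are known targets of Adr1, an activator of genes needed for non-fermentable carbon sources. The 300 bases before each start codon were therefore searched on both strands for TTGGAG or TTGGGG, a choice made after the expression values were seen. ACS1, ADY2, ATO3 and ALD4 held at least 1 match and the other 6 of the 10 loci held none, while 912 of 6020 promoters (15.1%) held one. The stretches from 300 to 151 bases before the start codon, which hold every match found, are shown 5′ to 3′ from the RefSeq S288C genome (R64), with the matches and their reverse complements in capitals. They lie at chrI:45173-45322 on the minus strand (ACS1), chrIII:133275-133424 on the minus strand (ADY2), chrIV:1242182-1242331 on the minus strand (ATO3) and chrXV:1039540-1039689 on the plus strand (ALD4).
ACS1: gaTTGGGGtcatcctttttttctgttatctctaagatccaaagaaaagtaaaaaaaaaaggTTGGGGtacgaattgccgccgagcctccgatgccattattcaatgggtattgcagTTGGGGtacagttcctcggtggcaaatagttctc
ADY2: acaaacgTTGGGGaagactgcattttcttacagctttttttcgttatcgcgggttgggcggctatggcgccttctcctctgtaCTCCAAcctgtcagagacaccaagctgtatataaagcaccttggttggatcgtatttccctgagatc
ATO3: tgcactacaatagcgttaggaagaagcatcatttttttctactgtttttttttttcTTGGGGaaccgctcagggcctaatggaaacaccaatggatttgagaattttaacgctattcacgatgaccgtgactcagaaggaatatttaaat
ALD4: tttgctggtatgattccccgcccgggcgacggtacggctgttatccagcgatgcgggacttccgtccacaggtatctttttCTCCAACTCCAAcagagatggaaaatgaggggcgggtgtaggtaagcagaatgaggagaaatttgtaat

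The ACS1 stretch holds 3 matches, ADY2 and ALD4 hold 2 each and ATO3 holds 1. In ALD4 the matches stand directly side by side, and in ACS1 the match 298 bases before the start codon overlaps a CCAAT box. CCAAT itself, the letters bound by the Hap complex, was found before ALD2, ACS1, ADY2 and ATO3, and in 41.7% of all promoters. CCCCT, the stress response element bound by Msn2 and Msn4, was found before ALD3, ALD4, ALD5 and ALD6, and in 22.2% of all promoters. CCNTTNNNCCG, the element read by Cat8 and Sip4, was found before none of the 10 loci and in 1.38% of all promoters. The cultured strain was CEN.PK113-7D, whose bases may differ, and a match describes letters only.

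Counts of read pairs per gene summed to between 6510449 and 10660870 per K. marxianus library and between 2849618 and 13112466 per S. cerevisiae library. Levels below are CPM (read pairs of a gene per 1e6 counted) scaled with TMM factors, which correct each library for its composition, and levels of different genes are compared only as CPM per kb of gene. The cytochrome c gene CYC1, which needs oxygen for its expression, had a mean of 557 CPM in aerobic, 895 CPM in oxygen-limited and 84.0 CPM in TE cultures of K. marxianus, and 515, 1205 and 53.5 CPM in S. cerevisiae. ANB1, made without oxygen, stood at 0.359 CPM in aerobic and 663 CPM in TE cultures of S. cerevisiae. Replicate 2 of the unsupplemented S. cerevisiae cultures stood apart, with the lowest total, a TMM factor of 0.371 and 19.8% of its counts in SCEN_L02180. The SD across genes of the log2 difference between replicates was 1.63 in that group. In the remaining groups of S. cerevisiae it ran from 0.14 to 0.47, and in K. marxianus from 0.15 to 0.60, where the T group was highest. Titles open with a code whose meaning the labels do not give. It was shared between TE and T in K. marxianus and between TE and unsupplemented cultures in S. cerevisiae, and differed between the groups compared elsewhere. Where it was shared, it served as a replicate block in an alternative fit given at the end. Elsewhere its part cannot be told apart from that of the culture. Titles with a shared code end in a digit that differed between the groups, and the labels do not give its meaning. The part of that digit cannot be told apart from that of the supplements.

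The aldehyde dehydrogenase transcripts of K. marxianus were of different genes with and without ample oxygen. Its ALD4 (chromosome 5, 18815 to 20380, plus strand of the authors' CBS6556 annotation) stood at 19415 and 18487 CPM in the aerobic replicates and was the most counted gene of both libraries, with 1.97% and 1.87% of all counts. It stood at 9.32 and 9.64 CPM in oxygen-limited cultures, 12.1 and 15.7 CPM in TE, and 4.65 and 10.0 CPM in T. All 6 libraries from cultures short of oxygen thus lay far below both aerobic libraries.

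ALD5 (chromosome 4, 915536 to 917080, plus strand) had the opposite order in K. marxianus. Its level was 3.37 and 3.99 CPM in aerobic cultures, from 34 and 43 read pairs, and 2154 and 2208 CPM in oxygen-limited cultures. It was 1175 and 939 CPM in TE, and 639 and 129.6 CPM in T, where the replicates differed widely. ALD6 (chromosome 1, 1548494 to 1550017, minus strand) was likewise low in aerobic cultures, with 33.8 and 38.0 CPM. It stood at 1137 and 1163 CPM in oxygen-limited cultures, 1694 and 1304 CPM in TE, and 806 and 392 CPM in T. ALD3 differed little, from 45.7 CPM in a T culture to 115.9 CPM in an oxygen-limited culture.

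In S. cerevisiae no such exchange was seen. ALD4 was again highest with oxygen, at 4584 and 4712 CPM, but lay at 1269 and 2083 CPM in oxygen-limited cultures, 548 and 556 CPM in TE, and 105 and 122 CPM in T. Each of these groups lay below the one before it without overlap. ALD6 stood at 3606 and 3256 CPM in aerobic cultures, 1061 and 1233 CPM in oxygen-limited cultures, 1168 and 1195 CPM in TE, and 640.0 and 689.8 CPM in T, so that its oxygen-limited and TE groups overlapped. ALD5 kept a moderate level, from 149 CPM in an oxygen-limited culture to 317 CPM in a TE culture over these groups, and its aerobic values of 256 and 224 CPM lay between.

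**Figure D1:**
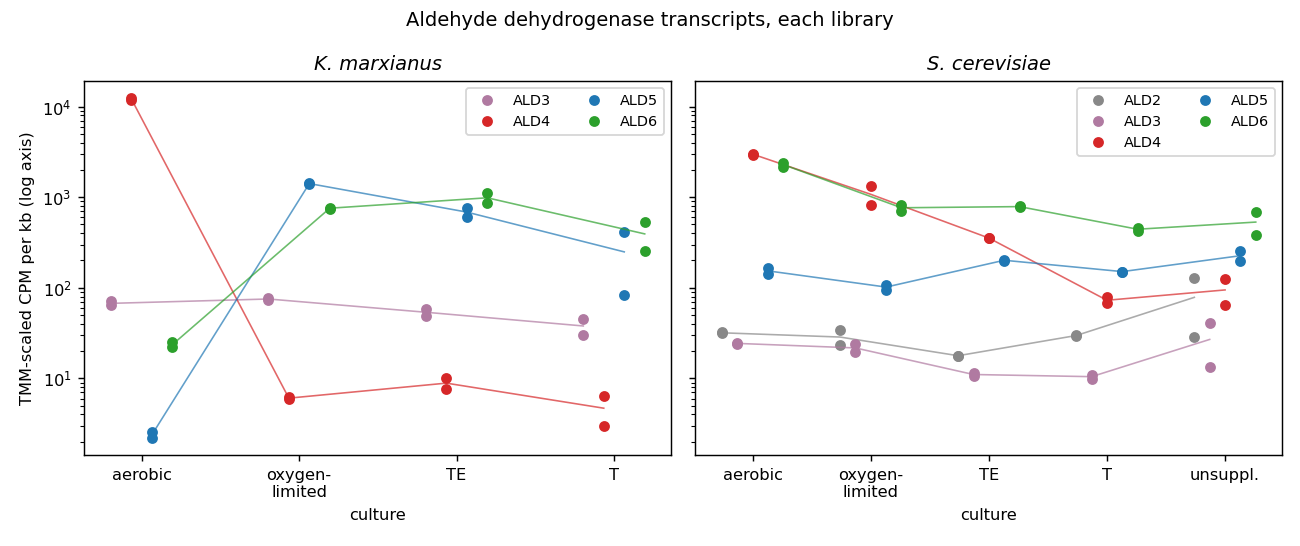
TMM-scaled CPM per kb (log axis) of the aldehyde dehydrogenase genes by culture in each species, with points for the 2 libraries of a group and lines through the group means. In K. marxianus ALD4 lay at 12398 and 11805 CPM per kb in aerobic cultures and at 10.0 CPM per kb or less otherwise, while ALD5 and ALD6 had the reverse order. In S. cerevisiae ALD4 and ALD6 were the 2 highest in aerobic cultures.

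Against aerobic cultures these genes are described without a test, because the family was proposed with those comparisons in view. The log2 fold change of K. marxianus ALD4 was -10.96 ± 0.41 (standard error, SE) in oxygen-limited and -10.42 ± 0.40 in TE cultures. That of ALD5 was 9.20 ± 0.88 and 8.16 ± 0.84, and that of ALD6 was 5.00 ± 0.37 and 5.38 ± 0.38. In S. cerevisiae the same log2 fold changes were -1.47 ± 0.40 and -3.07 ± 0.43 for ALD4, -0.59 ± 0.22 and 0.39 ± 0.22 for ALD5, and -1.58 ± 0.34 and -1.54 ± 0.34 for ALD6.

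Per length, the make-up of the aldehyde dehydrogenase transcripts in K. marxianus turned from nearly all ALD4 to nearly all ALD5 and ALD6. ALD4 made up 99.2% ± 0.0054 (SD, n = 2) of the summed CPM per kb of the 4 genes in aerobic cultures and 0.269% ± 0.0024 (SD, n = 2) in oxygen-limited cultures. In the oxygen-limited cultures ALD5 had 62.8% ± 0.15 and ALD6 33.6% ± 0.015 (SD, n = 2). In TE the order was turned, with ALD6 at 56.8% ± 0.82 and ALD5 at 39.6% ± 0.48 (SD, n = 2), and in T the replicates gave ALD6 54.2% and 65.5% and ALD5 42.4% and 21.4%. The summed level itself was 12195 ± 421 CPM per kb in aerobic, 2248 ± 33.8 in oxygen-limited, 1730 ± 294 in TE and 684 ± 412 in T cultures (SD, n = 2).

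In S. cerevisiae ALD4 and ALD6 together held most of the summed level in every group. ALD4 had 54.5% ± 2.3 in aerobic, 53.3% ± 6.0 in oxygen-limited, 25.8% ± 0.0051 in TE and 10.3% ± 0.67 in T cultures (SD, n = 2). ALD6 led in TE with 57.4% ± 0.32 and in T with 62.6% ± 0.62 (SD, n = 2). ALD5 had 2.80% ± 0.20 in aerobic and 21.4% ± 0.93 in T cultures (SD, n = 2). The summed level was 5472 ± 122 CPM per kb in aerobic, 1990 ± 469 in oxygen-limited, 1370 ± 14.5 in TE and 706 ± 30.4 in T cultures (SD, n = 2).

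**Figure D2:**
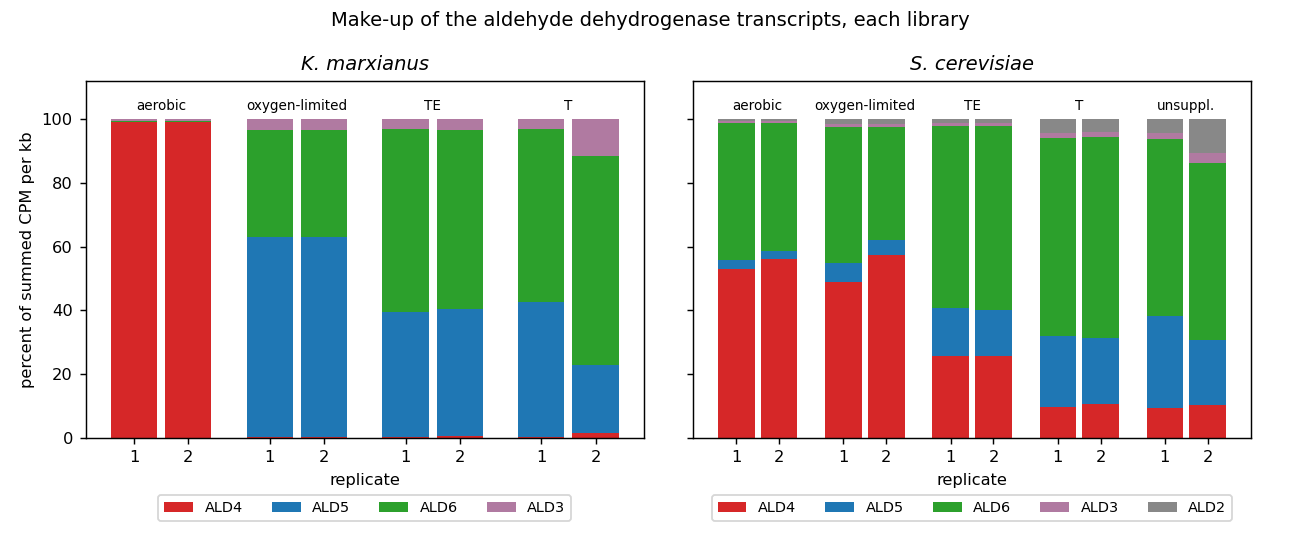
Percent of the summed CPM per kb of the aldehyde dehydrogenase genes held by each gene, with a bar for each library, by culture and species. ALD4 filled 99.2% of the aerobic K. marxianus bars and under 2% of the other bars of that species, and in S. cerevisiae its part was 54.5% in aerobic and 10.3% in T cultures.

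The step from oxygen limitation to no oxygen (TE against oxygen-limited, the same medium) and the omission of ergosterol (T against TE) were tested across all genes with edgeR's quasi-likelihood test and Benjamini-Hochberg adjustment. Values of ALD4, ALD5 and ADY2 against aerobic cultures were known when the loci were chosen. The first step is the difference between the TE and oxygen-limited comparisons with aerobic cultures. For these genes its p-values, also those between species, are therefore not independent of that choice. T against TE uses the same TE libraries, so its p-values for these genes, within or between species, are not independent of the choice either. ALD6 of K. marxianus was lower in T than in TE, with a log2 fold change of -1.32 ± 0.32 (SE) and an adjusted p of 0.0177 by that test. The adjusted p was 0.119 without TE replicate 1 and 0.0519 without TE replicate 2. ALD5 had a log2 fold change of -1.46 ± 0.61 (SE) in the same comparison and was not called (adjusted p = 0.0999, edgeR), while DESeq2 called it (adjusted p = 0.0286). Its size depended on the T library used: without T replicate 2, which had 129.6 CPM, the log2 fold change was -0.73, and without T replicate 1 it was -3.03. A fit with 1 T library takes its spread from the other groups, so it cannot measure the spread between T cultures. ALD4 and ALD3, at -0.91 ± 0.32 and -0.50 ± 0.20 (SE), were not called in edgeR's fit of all groups. DESeq2 called ALD4 (-0.88 ± 0.31, adjusted p = 0.0145), which had 29 and 64 read pairs in T.

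In S. cerevisiae ALD4 was lower in T than in TE, with a log2 fold change of -2.28 ± 0.41 (SE) and an adjusted p of 0.0259 in edgeR. That call was lost without any single library of the aerobic, TE or T group, with adjusted p from 0.0787 to 0.304 and log2 fold changes from -2.39 to -2.17. The spread of the unsupplemented replicates enters this fit. Fitted without that group, edgeR's adjusted p of ALD4 was 0.000483 at a log2 fold change of -2.28. ALD2 (0.75 ± 0.16 higher), ALD5 (-0.41 ± 0.11) and ALD6 (-0.82 ± 0.18) were called there as well (SE), beside 50.2% of all genes. ALD2 stood at 26.9 and 27.2 CPM in TE and 45.3 and 45.1 CPM in T, without overlap. ALD2 and ALD3 are near-identical neighbours, and how reads that fit both were counted is not known, so their values are uncertain.

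Between oxygen-limited and TE cultures no aldehyde dehydrogenase was called in K. marxianus or S. cerevisiae in edgeR's fits of all groups. Of all genes 52.0% were called there in K. marxianus and 2.11% in S. cerevisiae. DESeq2, also on all groups, called ALD4 (-1.61 ± 0.42, adjusted p = 0.00302) and ALD5 (0.98 ± 0.23, adjusted p = 0.000815) of S. cerevisiae (log2, SE). With the K. marxianus groups fitted alone all 4 were called in edgeR, where 72.1% of all genes were called. In that edgeR fit ALD5 (-1.04 ± 0.12, adjusted p = 5.54e-06) and ALD3 (-0.48 ± 0.11, adjusted p = 0.00142) were lower in TE (log2, SE). ALD6 (0.38 ± 0.12, adjusted p = 0.0117, edgeR) and ALD4 (0.54 ± 0.19, adjusted p = 0.0208, edgeR) were higher in TE (log2, SE). In the fit of all groups the log2 fold change of K. marxianus ALD5 was -1.05 ± 0.60 (SE, adjusted p = 0.182, edgeR) and that of S. cerevisiae ALD4 was -1.60 ± 0.40 (SE, adjusted p = 0.0934, edgeR). Without the unsupplemented group, ALD4 (adjusted p = 0.00294), ALD5 (0.000762), ALD3 (0.00170) and ALD2 (0.0160) of S. cerevisiae were called in edgeR, beside 38.8% of all genes. In that fit ALD5 was 1.01 ± 0.12 higher in TE (log2, SE), and ALD4, ALD3 and ALD2 were lower, by -1.57 ± 0.26, -0.95 ± 0.13 and -0.66 ± 0.16.

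Of the synthetases, ACS1 was highest by far in aerobic cultures of both yeasts and ACS2 was not. K. marxianus ACS1 stood at 15025 and 15184 CPM in aerobic cultures, 150.4 and 182 CPM in oxygen-limited cultures, 104 and 94.3 CPM in TE, and 159.6 and 101 CPM in T. S. cerevisiae ACS1 had a lower aerobic level, with 3037 and 3342 CPM in aerobic, 122 and 99.8 CPM in oxygen-limited, 72.4 and 69.9 CPM in TE, and 46.4 and 51.4 CPM in T cultures. In both species each aerobic library lay far above every other one.

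ACS2, the synthetase of glucose-grown cells, moved over a narrower range and in different orders. In K. marxianus it was lowest in aerobic cultures, with 340.3 and 331 CPM, against 595 and 632 CPM in oxygen-limited cultures. Its TE values were 461 and 355 CPM and its T values 326 and 581 CPM, so that T overlapped every other group but oxygen-limited. In S. cerevisiae it was highest in aerobic cultures, with 905 and 849 CPM, and lowest in oxygen-limited cultures, with 263 and 216 CPM. It then stood at 406 and 375 CPM in TE and 707 and 733 CPM in T, without overlap between these groups.

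Per length, ACS1 made up 97.7% ± 0.063 of the summed synthetase level in aerobic K. marxianus and 77.7% ± 2.0 in aerobic S. cerevisiae (SD, n = 2). In TE cultures ACS2 had 81.1% ± 1.8 in K. marxianus and 85.1% ± 0.39 in S. cerevisiae (SD, n = 2). The summed level was 9380 ± 63.5 CPM per kb in aerobic and 321 ± 52.0 in TE cultures of K. marxianus, and 1916 ± 81.8 and 224 ± 11.6 in S. cerevisiae (SD, n = 2). The K. marxianus ACS1 row is 1648 bases long, which is not a whole number of codons, so its level per kb is less certain. Both K. marxianus rows are shorter than those of S. cerevisiae, which are 2142 (ACS1) and 2052 (ACS2) bases long. The K. marxianus ACS2 row has 1563 bases. Whether these rows are incomplete was not tested, so the shares carry the same uncertainty.

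Without a test, the log2 fold change of ACS1 against aerobic cultures was -6.50 ± 0.28 (oxygen-limited) and -7.25 ± 0.29 (TE) in K. marxianus, and -4.84 ± 0.74 and -5.49 ± 0.76 in S. cerevisiae (SE). That of ACS2 was 0.87 ± 0.26 and 0.28 ± 0.26 in K. marxianus, and -1.87 ± 0.32 and -1.17 ± 0.31 in S. cerevisiae (SE). Among the tested steps, ACS1 of K. marxianus fell from oxygen-limited to TE cultures by 0.75 ± 0.22 on the log2 scale (SE, adjusted p = 0.0267, edgeR). Leaving out any single aerobic, oxygen-limited or TE library ended this call, with adjusted p from 0.0522 to 0.160. ACS2 of S. cerevisiae had a log2 fold change of 0.88 ± 0.31 from TE to T (SE, adjusted p = 0.156, edgeR). Without the unsupplemented group it was 0.89 ± 0.15 (SE, adjusted p = 0.00211, edgeR). In that fit ACS2 was also higher in TE than in oxygen-limited cultures (0.74 ± 0.15, adjusted p = 0.00686), and ACS1 was lower in TE than in oxygen-limited cultures (-0.61 ± 0.17, adjusted p = 0.0226) and in T than in TE (-0.53 ± 0.17, adjusted p = 0.0296, edgeR; log2, SE). With all groups none of these 3 was called.

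The transport genes split further. ADY2, the acetate importer, kept a high level in oxygen-limited K. marxianus and lost it without oxygen. Its values there were 242 and 231 CPM in aerobic cultures, 157 and 165 CPM in oxygen-limited cultures, 14.7 and 15.5 CPM in TE, and 33.8 and 35.6 CPM in T, with no overlap between any of the groups. In S. cerevisiae ADY2 was already low under oxygen limitation: it stood at 1678 and 2143 CPM in aerobic cultures, 5.82 and 7.00 CPM in oxygen-limited cultures, 5.09 and 4.60 CPM in TE, and 5.83 and 6.80 CPM in T. The last 3 groups rest on 47 to 102 read pairs a library.

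ATO3 was far higher in aerobic cultures of both yeasts than in any others. In K. marxianus it stood at 612 and 531 CPM in aerobic cultures and between 5.45 and 12.6 CPM in all 6 other libraries. In S. cerevisiae it stood at 1192 and 1358 CPM in aerobic cultures, 56.5 and 42.0 CPM in oxygen-limited cultures, 77.8 and 82.1 CPM in TE, and 31.1 and 39.5 CPM in T. Its TE values there lay above the oxygen-limited ones, a step of 0.70 ± 0.28 (log2, SE) that was not called with all groups (adjusted p = 0.29, edgeR) and was called without the unsupplemented group (0.73 ± 0.19, adjusted p = 0.0179, edgeR). ATO2 of K. marxianus had another order, with 30.2 and 27.8 CPM in aerobic, 31.1 and 27.8 CPM in oxygen-limited, 82.9 and 73.4 CPM in TE, and 72.7 and 105.6 CPM in T cultures. Every library without oxygen thus lay above every library with some.

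**Figure D3:**
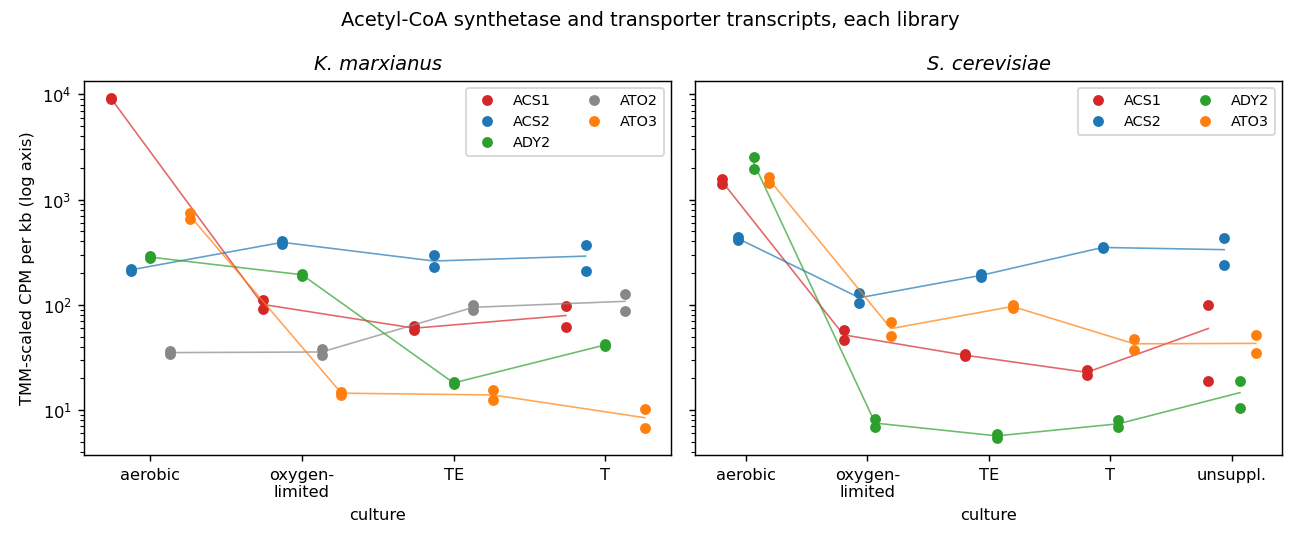
TMM-scaled CPM per kb (log axis) of the synthetase and transport genes by culture in each species, with points for the 2 libraries of a group and lines through the group means. ACS1 and ATO3 were far higher in aerobic cultures of both species, ADY2 of K. marxianus was low in TE and T only, and ACS2 stayed between 105 and 441 CPM per kb in all libraries of both species.

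The leading transport transcript per length thus changed with the culture. In K. marxianus ATO3 had 68.7% ± 1.4 of the summed CPM per kb in aerobic, ADY2 79.4% ± 1.2 in oxygen-limited, and ATO2 74.7% ± 0.74 in TE cultures (SD, n = 2). In S. cerevisiae ADY2 had 59.1% ± 2.0 in aerobic cultures, and ATO3 had 88.5% ± 3.4 in oxygen-limited and 94.4% ± 0.58 in TE cultures (SD, n = 2).

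Against aerobic cultures, described without a test, the log2 fold change of ADY2 was -0.56 ± 0.10 (oxygen-limited) and -3.97 ± 0.11 (TE) in K. marxianus and -8.22 ± 0.42 and -8.62 ± 0.43 in S. cerevisiae (SE). That of ATO3 was -5.60 ± 0.21 and -5.65 ± 0.22 in K. marxianus and -4.70 ± 0.33 and -4.00 ± 0.32 in S. cerevisiae (SE). In the tested step from oxygen-limited to TE cultures, ADY2 of K. marxianus fell by 3.41 ± 0.11 on the log2 scale (SE, adjusted p = 7.65e-06, edgeR), and ATO2 rose by 1.41 ± 0.19 (SE, adjusted p = 0.00114, edgeR). Both calls held in every alternative run. Values of ADY2 against aerobic cultures, from which this step follows, were known when the loci were chosen.

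When ergosterol was left out, ADY2 of K. marxianus rose by 1.20 ± 0.11 on the log2 scale (SE, adjusted p = 0.00171, edgeR). ATO3 fell by 0.72 ± 0.23 (SE, adjusted p = 0.0429, edgeR), a call lost without any single library other than T replicate 2, with adjusted p from 0.0716 to 0.238. With the T and TE groups of K. marxianus fitted alone, 0 of 5091 genes were called in edgeR, and the adjusted p of ADY2 was 0.0579, that of ALD6 0.102 and that of ATO3 0.193. In S. cerevisiae ATO3 had a log2 fold change of -1.18 ± 0.28 from TE to T (SE, adjusted p = 0.0592, edgeR), and without the unsupplemented group its adjusted p was 0.00180 at -1.17 ± 0.19.

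**Figure D4:**
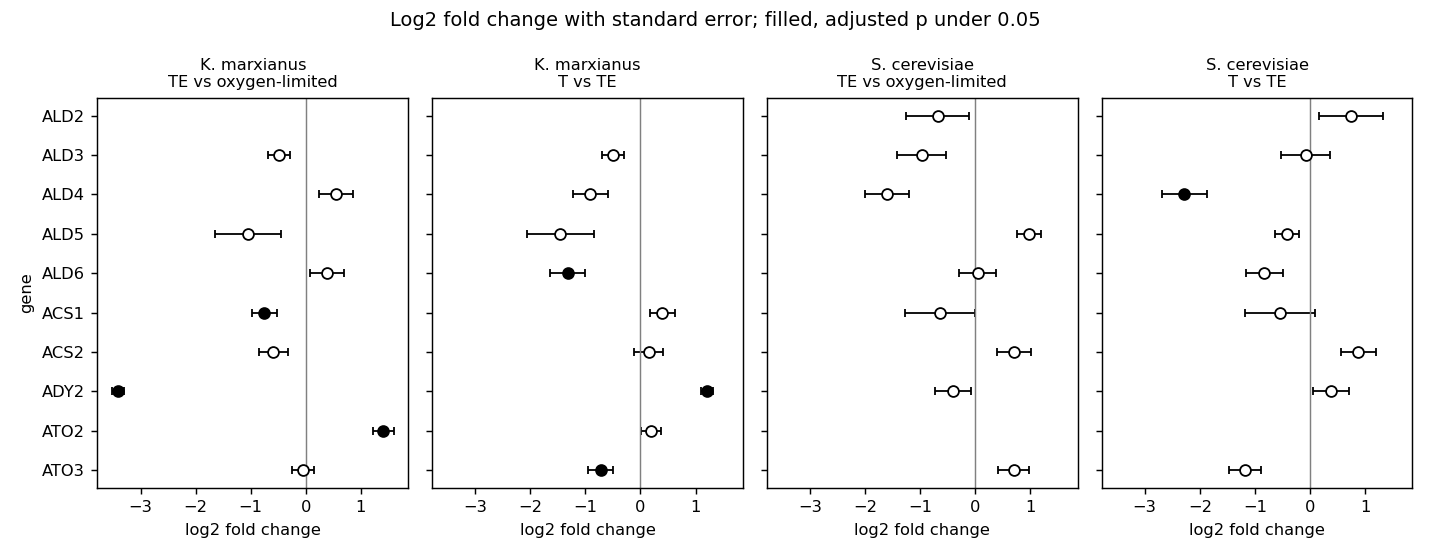
Log2 fold change with its standard error for each gene in the 4 tested comparisons that do not involve unsupplemented cultures, with filled points for an adjusted p under 0.05 in the fit of all groups of a species. ADY2 stood at -3.41 and ATO2 at 1.41 in K. marxianus from oxygen-limited to TE cultures, and ALD4 at -2.28 in S. cerevisiae from TE to T.

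Counts over the family were set beside those over all genes. In the comparisons that proposed the family, which are descriptions, 2 of 9 K. marxianus rows were at least 1 log2 unit higher in oxygen-limited than in aerobic cultures (11.7% of all genes) and 3 of 9 at least 1 unit lower (8.98%). In TE they were 3 of 9 higher (13.1%) and 4 of 9 lower (13.2%). In S. cerevisiae 0 of 9 were higher and 6 of 9 lower in oxygen-limited cultures (13.7% and 9.42% of all genes), and 0 of 9 were higher and 7 of 9 lower in TE (12% and 9.42%). These comparisons share their aerobic libraries, and nothing was read from the counts.

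From oxygen-limited to TE cultures of K. marxianus, 1 of 9 rows rose and 2 of 9 fell, with 25.7% and 26.3% of all genes called in those directions. The share of the family was thus near or below the background. Their median log2 fold change was -0.48, against -0.02 over all genes tested. With these groups fitted alone 8 of 9 were called, beside 72.1% of all genes, and without T replicate 1 or T replicate 2 again 8 of 9, beside 73.3% of all genes in each fit. From TE to T, 1 of 9 rose and 2 of 9 fell (18.9% and 18.4% of all genes), with a median of -0.50 against 0.03. Without T replicate 2 the count called was 7 (56.0% of all genes called), without T replicate 1 it was 5 (63.5%), and it was 1 without TE replicate 1 (12.3%) or TE replicate 2 (19.6%).

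In S. cerevisiae 0 of 9 rows were called higher and 0 of 9 lower from oxygen-limited to TE cultures in edgeR, where 0.835% and 1.28% of all genes were called. At an unadjusted p under 0.05 the count was 3, DESeq2 called 2, and edgeR without the unsupplemented group, or without either of its libraries, called 7 of 9, with 38.4% to 38.8% of all genes called. From TE to T, 0 of 9 rose and 1 of 9 fell (1.72% and 3.32% of all genes). Without the unsupplemented group, or without either of its libraries, 7 of 9 were called, with 49.7% to 50.3% of all genes called. Without any single aerobic, TE or T library 0 were called, with 0.051% to 0.797% of all genes. The family medians were -0.40 and -0.42 (log2), against -0.01 and -0.0018 over all genes.

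The unsupplemented S. cerevisiae cultures had ill-matched replicates for this family. All 9 rows were higher in replicate 2 than in replicate 1 by TMM-scaled CPM, and 3 of 9 were when counts were divided by the library total alone. ALD4 stood at 101 and 194 CPM, ALD6 at 576 and 1019 CPM, ACS1 at 40.7 and 215 CPM, ACS2 at 495 and 876 CPM, and ADY2 at 8.89 and 16.1 CPM, the last from 105 and 17 read pairs. ALD2 stood at 43.8 and 195 CPM, ALD3 at 20.4 and 61.4 CPM, ALD5 at 312 and 394 CPM, and ATO3 at 28.7 and 42.5 CPM. For ALD4 the T values of 105 and 122 CPM lay between the 2 unsupplemented ones.

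Against T, 0 of 9 rows were called higher and 0 of 9 lower in the unsupplemented cultures by edgeR, where 8.37% and 2.95% of all genes were called, 3 had an unadjusted p under 0.05 and DESeq2 called 2. Without unsupplemented replicate 1 edgeR called 6 (73.1% of all genes), and without unsupplemented replicate 2 it called 1 (43.1%). Against TE, 0 of 9 were higher and 2 of 9 lower (6.1% and 2.57% of all genes): ALD4 by -1.91 ± 0.41 (SE, adjusted p = 0.0333, edgeR) and ATO3 by -1.19 ± 0.29 (SE, adjusted p = 0.0484, edgeR). Without any single aerobic, TE or T library neither call held, and without either oxygen-limited library ATO3 was lost. Without unsupplemented replicate 1 the count called was 7 (73.4% of all genes called) and without unsupplemented replicate 2 it was 6 (30.1%). With no TMM factors the median of all genes was -0.58 in this comparison, against -0.03 with them, and ALD4 and ATO3 were at -2.75 and -1.91 and still called.

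The responses were compared between species by testing, in edgeR, how far the log2 fold change in K. marxianus exceeded the one in S. cerevisiae, over 3885 genes matched 1 to 1 and the 16 libraries of the 4 shared cultures. From oxygen-limited to TE cultures, 4 of 8 loci were lower and 1 of 8 higher in K. marxianus (23.3% and 23.1% of all matched genes). ADY2 differed by -3.04 ± 0.24 (SE, adjusted p = 2.69e-06), ACS2 by -1.33 ± 0.32 (adjusted p = 0.00470), ALD5 by -2.06 ± 0.66 (adjusted p = 0.0224) and ATO3 by -0.78 ± 0.30 (adjusted p = 0.0460) in edgeR. ALD4 differed by 2.12 ± 0.43 (SE, adjusted p = 0.00162, edgeR). In both cultures of this step K. marxianus ALD4 stood at 9.32 to 15.7 CPM and its ATO3 at 10.1 to 12.6 CPM. S. cerevisiae ADY2 stood at 4.60 to 7.00 CPM. All of these lay far below their aerobic levels already, so the differences of these genes rest mainly on the other species. For ACS1 the difference was -0.14 ± 0.31 and for ALD6 0.31 ± 0.37 (SE), and neither was called.

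The calls of ADY2, ACS2 and ALD4 held with any single library left out. ALD5 was lost without K. marxianus oxygen-limited or TE replicate 2, S. cerevisiae oxygen-limited replicate 1 or TE replicate 1, with adjusted p from 0.0544 to 0.0844. ATO3 was lost in 11 of the 16 fits without a library, with a value from -0.83 to -0.57 in them. The count of 5 called loci was 3 without K. marxianus oxygen-limited replicate 2, without K. marxianus TE replicate 2 and without S. cerevisiae TE replicate 1.

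From TE to T, 3 of 8 loci were higher and 0 of 8 lower in K. marxianus relative to S. cerevisiae (25.7% and 24.8% of all matched genes). ALD4 differed by 1.36 ± 0.44 (SE, adjusted p = 0.0214), ACS1 by 0.93 ± 0.31 (adjusted p = 0.0234) and ADY2 by 0.81 ± 0.24 (adjusted p = 0.0128) in edgeR. Without S. cerevisiae T replicate 1 none of them was called, and without S. cerevisiae TE replicate 2 ADY2 was the only call. ALD4 was also lost without K. marxianus TE replicate 1 (1.21) or T replicate 2 (0.71, adjusted p = 0.213, edgeR), and its difference ran up to 1.81 without K. marxianus T replicate 1. ACS1 ran from 0.57, without K. marxianus T replicate 1, to 1.22, and was also lost without K. marxianus TE replicate 2 or T replicate 1, S. cerevisiae TE replicate 1 or T replicate 2.

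**Figure D5:**
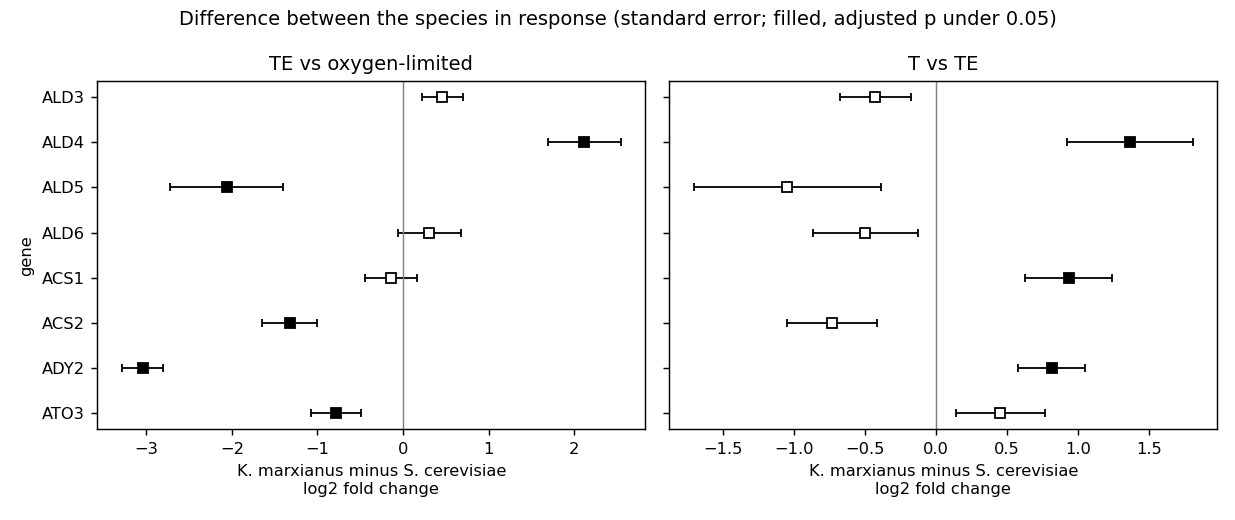
K. marxianus minus S. cerevisiae log2 fold change with its standard error for the 8 loci with a row in both species, in the step from oxygen-limited to TE cultures and from TE to T, with filled points for an adjusted p under 0.05. ADY2 stood at -3.04 and ALD4 at 2.12 in the first, and ALD4 at 1.36 in the second.

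The neighbouring steps of the pathway were read from 36 genes in 7 lists. In K. marxianus 29 of the 36 had a tested row, of which 1 rose and 21 fell from oxygen-limited to TE cultures in edgeR, beside 25.7% and 26.3% of all genes. All 5 genes of the pyruvate dehydrogenase complex, the mitochondrial route from pyruvate to acetyl-CoA, fell, from -0.87 ± 0.10 for PDB1 to -1.25 ± 0.23 for PDX1 (log2, SE). Of the genes that form or reduce acetaldehyde, 4 of 5 tested fell, among them the alcohol dehydrogenase ADH2 by -3.95 ± 0.34. Of the carnitine genes, which move acetyl groups between compartments, 3 of 4 fell, and the carrier CRC1 fell by 5.55 ± 0.16 (log2, SE). All 4 regulators with a row fell, from SIP4 at -0.65 ± 0.12 to CAT8, an activator of genes for non-fermentable carbon, at -1.57 ± 0.19 (log2, SE). The acetyl-CoA hydrolase ACH1 fell by 1.61 ± 0.19 (log2, SE). Of the glyoxylate cycle and gluconeogenesis list only 1 of 5 was called, MDH2, lower by 1.94 ± 0.29, and the list's median was -0.37 (log2, SE). Of 4 other aldehyde dehydrogenases 2 fell, among them PUT2 by 0.63 ± 0.14, and 1 rose, MSC7, a protein of that family, by 0.85 ± 0.13 (log2, SE).

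From TE to T in K. marxianus, 6 of the 29 rose and 6 fell, beside 18.9% and 18.4% of all genes. Of the glyoxylate cycle and gluconeogenesis list 3 of 5 rose, from MLS1 at 1.02 ± 0.33 to ICL1 at 2.76 ± 0.75 (log2, SE). The regulator ADR1 rose by 1.20 ± 0.19, HAA1, an activator of the response to acetic acid, fell by 0.89 ± 0.19, and PDA1 and PDB1 of pyruvate dehydrogenase fell by 0.55 ± 0.11 and 0.87 ± 0.11 (log2, SE). As for the members, these calls were absent with T and TE fitted alone.

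In S. cerevisiae all 36 had a tested row, and calls were few in the fit of all groups. From oxygen-limited to TE cultures 0 rose and 2 fell, beside 0.835% and 1.28% of all genes. These were CRC1, by 2.20 ± 0.26, and CAT8, by 1.99 ± 0.39 (log2, SE). From TE to T the gluconeogenic PCK1 and CRC1 fell, by 1.64 ± 0.37 and 3.26 ± 0.29, and MSC7 rose by 1.93 ± 0.32 (log2, SE). Of all genes 3.32% were called lower and 1.72% higher there. Unsupplemented against T, 5 rose and 2 fell (8.37% and 2.95% of all genes), with the carnitine acetyltransferase YAT1 at 3.59 ± 0.94 and ADR1 at -1.53 ± 0.29. Unsupplemented against TE, 2 rose and 1 fell (6.1% and 2.57% of all genes), with the succinate semialdehyde dehydrogenase UGA2 at 1.82 ± 0.24 and CRC1 at -2.07 ± 0.32 (log2, SE).

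Against aerobic cultures, as a description, 18 of the 36 S. cerevisiae genes and 16 of the 29 K. marxianus genes were at least 1 log2 unit lower in TE, and 2 and 3 were at least 1 unit higher. Of all genes 9.42% and 13.2% were that much lower, and 12% and 13.1% that much higher. The median log2 fold change of the glyoxylate cycle and gluconeogenesis list was -4.35 over 6 genes in S. cerevisiae and -0.98 over 5 in K. marxianus. That of the 4 carnitine genes was -3.39 and -5.32, and that of the 5 pyruvate dehydrogenase genes -0.44 and -1.36. The difference between the species was not tested over lists.

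In each species the member with the widest range of group means was compared with all other genes of at least 10 CPM on average. Over the 8 K. marxianus libraries, ALD4 (range 11.23 log2 units) was most closely followed by KM6556v0_B007480 and KM6556v0_B000040, which have no S. cerevisiae counterpart in the tables, and the third, SPG4, with Pearson's r of 0.999, 0.998 and 0.998. Over the 10 S. cerevisiae libraries, ADY2 (range 8.34 log2 units) was most closely followed by the proton pump gene PMA2 (r = 0.996), the formate dehydrogenase gene FDH1 (0.994), MDH2 (0.993), YAT2 (0.992) and ICL1 (0.990). The libraries share a large step between aerobic and other cultures, and these values are a description.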

How the data were processed

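The authors deposited a table of raw counts of read pairs per gene for each species. Per the file headers they were made with featureCounts 1.6.0 on gene features with both ends mapped, chimeric pairs left out and no strand option set. By its default settings, pairs over more than 1 gene, and pairs marked as having several alignments, were not counted. Whether the alignments carried such marks was not checked. Bowtie 1.2.1.1, SAMtools 1.3.1 and edgeR 3.28.1 are named in the submitters' processing notes. Libraries were made with a stranded poly(A) kit, per the labels' protocols. The authors' deposited comparison tables were used only to match genes to S288C loci; 2 of those for K. marxianus hold identical text, and none of their values was used.

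Counts were fitted per species over all groups in edgeR 4.0.16 (R 4.3.3), with filterByExpr, TMM factors and glmQLFTest, and p-values adjusted over all 5143 K. marxianus or 5868 S. cerevisiae genes tested. Calls are at an adjusted p under 0.05, and standard errors are the log2 fold change divided by the root of the F statistic. DESeq2 1.42.0 was an alternative. The procedure was tested on simulated counts. Members, lists and comparisons were chosen with earlier results of these data known. All members may be named, and of each list the called genes with the highest and lowest log2 fold change in a tested comparison. Ratios of levels, motif searches and likeness are descriptions. The log2 values behind likeness use a pseudocount of 1 CPM. Counting error and culture spread set the precision, with 2 libraries per group.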

Additional observations from a re-analysis of the deposited data

Results flagged for a closer look

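These values were picked out because the log2 fold changes of matched rows differed between the species. Which K. marxianus gene matches which paralog within the ALD and ATO families is uncertain. For those loci a difference between species cannot be told apart from a difference between paralogs. From oxygen-limited to TE cultures the excess of the log2 fold change in K. marxianus over the one in S. cerevisiae passed edgeR's test for ADY2 (-3.04), ALD5 (-2.06), ACS2 (-1.33), ATO3 (-0.78) and ALD4 (2.12). K. marxianus ALD4 and ATO3 and S. cerevisiae ADY2 were already far below their aerobic levels in both of these cultures. From TE to T it passed for ALD4 (1.36), ACS1 (0.93) and ADY2 (0.81). K. marxianus ALD4 and S. cerevisiae ADY2 were far below their aerobic levels in T and TE too.

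Against aerobic cultures 3 loci had opposite directions in the species, with groups that did not overlap, and the difference was not tested. In oxygen-limited cultures the log2 fold change of ALD5 was 9.20 in K. marxianus and -0.59 in S. cerevisiae, that of ALD6 was 5.00 and -1.58, and that of ACS2 was 0.87 and -1.87. In TE cultures it was 5.38 and -1.54 for ALD6 and 0.28 ± 0.26 and -1.17 ± 0.31 (SE) for ACS2.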

How the results depend on the processing

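Of 1130 tested member results under alternatives, 923 kept their direction and call, 73 lost the call, 108 gained it and 26 changed sign. Of 522 descriptive ones, 493 moved by less than 1 SD between replicates. The cause of a change was not tested.

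With the groups of a comparison fitted alone, the number of members called was 8 for K. marxianus TE against oxygen-limited, 0 for K. marxianus T against TE, 5 and 7 for the same steps in S. cerevisiae, and 0 for unsupplemented against TE. DESeq2 called 5 for K. marxianus T against TE (40.5% of all genes, 2131). In S. cerevisiae it called 2 for TE against oxygen-limited (9.57%), 2 for T against TE (15.7%), 2 for unsupplemented against T (33.3%) and 6 against TE (26.6%). RLE size factors gave 0 for unsupplemented against TE (8.71% of all genes). Without the unsupplemented group, 7 were called in both S. cerevisiae steps (38.8% and 50.2% of all genes). Over all genes, fits of the groups alone called 0 for K. marxianus T against TE (1917 with all groups), 1069 for S. cerevisiae TE against oxygen-limited (124), 3727 for T against TE (296), and 0 for unsupplemented against T (664) and TE (509). DESeq2 called 586, 961, 2038 and 1629 in these S. cerevisiae comparisons, total-count scaling 45, 38, 88 and 164, and fits without the unsupplemented group 2270 and 2937 in the first pair. With 1 library left out the counts ran from 2 to 8 (K. marxianus TE against oxygen-limited), 1 to 7 (K. marxianus T against TE), 0 to 7 in both S. cerevisiae steps, 0 to 6 (unsupplemented against T), 0 to 7 (against TE), 3 to 6 (species difference, oxygen-limited to TE) and 0 to 4 (TE to T). A lone library was then assumed to vary like the other groups.

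Total counts in place of TMM factors were chosen as an alternative after the factor of unsupplemented replicate 2 was seen, and were not run for the species difference. They called 5 members for K. marxianus T against TE, beside 38.9% of all genes. The share of higher genes among those called moved from 50.7% to 27.0% there, from 34.1% to 81.6% (S. cerevisiae T against TE), from 39.5% to 57.8% (TE against oxygen-limited), from 56.6% to 43.9% (oxygen-limited against aerobic), from 73.9% to 44.3% (unsupplemented against T) and from 70.3% to 51.8% (against TE). The median of all genes moved from 0.03 to -0.18, from -0.0018 to 0.046, from -0.01 to 0.09, from -0.03 to -0.25, from 0.11 to -0.50 and from -0.03 to -0.58 in the same order, and from -0.01 to -0.13 for TE against aerobic. Signs turned for K. marxianus T against TE in ACS2 (-0.041) and ATO2 (-0.012), for unsupplemented against T in ALD5 (-0.16), ALD4 (-0.52) and ALD6 (-0.61), and against TE in ACS1 (-0.36), ALD5 (-0.53) and ACS2 (-0.014). RLE turned ATO3 to 0.025 for unsupplemented against T.

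With 1 library left out, log2 fold changes that turned ran from -0.21 to 0.10 for ATO3 (K. marxianus TE against oxygen-limited), from -0.32 to 0.51 for ACS2 and -0.11 to 0.43 for ATO2 (K. marxianus T against TE), from -0.061 to 0.15 for ALD6 (S. cerevisiae TE against oxygen-limited) and from -0.15 to 0.047 for ALD3 (S. cerevisiae T against TE). For unsupplemented against T they ran from -0.39 to 0.26 for ATO3, -0.63 to 0.28 for ACS2, -0.36 to 2.12 for ACS1, -0.14 to 2.10 for ALD2, -0.26 to 0.76 for ALD4 and -0.30 to 0.61 for ALD6, against TE from -0.88 to 1.59 for ACS1 and -0.089 to 0.32 for ALD5, and for the species difference in ACS1 from -0.27 to 0.015.

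Titles share a stem between T and TE in K. marxianus and between unsupplemented and TE in S. cerevisiae, which does not show that cultures are paired. Same-stem deviations across genes, which are not independent replicates, had Pearson's r of 0.196 in K. marxianus and -0.0918 in S. cerevisiae. With the stem as a replicate block in a fit of those groups alone, 3 and 0 members were called, beside 12.4% and 0.958% of all genes. In K. marxianus the block called ALD5 (-1.86, adjusted p = 0.0341, edgeR), not called without it, and did not call ATO3 (-0.73, adjusted p = 0.198, edgeR).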
